A study of Mus musculus with 11 samples.

Results

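The quiescence genes described here are 10 genes linked to the resting state of lymphocytes: Btg1, Btg2, Tob1, Sesn1, Ccng2, Klf2, Foxo1, Foxo3, Cdkn1b and Pik3ip1. They were found through the probe sets of an Affymetrix mouse array whose platform annotation names one of these symbols and no other gene, which gave 25 of the 45101 probe sets. All 10 genes were represented, so that they make up 10 of the 18193 genes tested. A further probe set, annotated to both Foxo3 and Gm38485, was not counted as a member. None of the 10 genes lies on chromosome 4, the chromosome that distinguishes the strains.

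The arrays measured RNA of splenic B cells purified by magnetic depletion from pools of 7 to 8 spleens of female mice aged 6 weeks, and cultured for 2 h. The groups were NOD (NOD/ShiLtJ) cells with anti-IgM (2 arrays), unstimulated NOD cells (3 arrays), NR4 (NOD.NOR-Chr4/DvsJ) cells with anti-IgM (3 arrays) and unstimulated NR4 cells (3 arrays). NOD mice develop autoimmune diabetes, and NR4 is a congenic strain that carries chromosome 4 material of the NOR strain on the NOD background. Anti-IgM was 10 µg/ml of goat F(ab')2 fragments, which cross-link the B cell receptor, and unstimulated cells were kept in medium alone. Each lot mixed several animals, and by the protocol in the labels cells of a lot were cultured in either way.

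Resting B cells are held out of the cell cycle by several layers of control. FOXO transcription factors switch on growth-restraining genes, and they leave the nucleus when the B cell receptor activates PI3-kinase and the kinase AKT. KLF2 is a zinc finger factor that keeps lymphocytes quiescent and recirculating. BTG and TOB proteins bring the CCR4-NOT deadenylase to messenger RNAs, which shortens their poly(A) tails, while p27, a sestrin and cyclin G2 act on cyclin-dependent kinases, on mTORC1 and on cell cycle arrest. Much of this control acts on proteins, and the arrays measured RNA only.

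The deposited log values were read as log2, and every probe set in the table has a median of 0 across the 11 arrays. A value of 0 is therefore the middle array and not an absent transcript, and levels cannot be compared between genes. Where several probe sets name a gene, their median stands for it. The number of arrays limits the precision. In bulk RNA, fewer cells of a type and less RNA per cell cannot be told apart.

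One array stood apart in its control transcripts. On NR4 anti-IgM replicate 1 the 3' probe set exceeded the 5' probe set by 1.05 for Gapdh and by 0.86 for beta-actin, relative to the middle array. The same differences were -0.16 to 0.42 and -0.028 to 0.19 on the other 10 arrays. For the pyruvate carboxylase and transferrin receptor controls the array was at -0.27 and -0.48, against -0.27 to 0.38 and -0.40 to 0.41 on the others. Several results below are also given without this array. As a check of the stimulation, Egr2, an immediate-early gene of receptor signalling, was at 0.99 and 1.14 in anti-IgM NOD cells, against -0.29 to -0.048 in unstimulated NOD cells, and at 1.08 to 1.20 in anti-IgM NR4 cells, against -0.11 to -0.0080 in unstimulated NR4 cells.

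The 3 members that fell after anti-IgM by the test below were Btg2, Sesn1 and Ccng2, and their promoters are shown here because they moved together. Each stretch runs from 250 bases before to 50 bases after a RefSeq transcription start in assembly GRCm38.p6, 5′ to 3′ on the strand of the gene. Capitals mark matches, on either strand, to the FOXO element GTAAACA or to the KLF element CACCC. The E-box CACGTG was searched as well.
Btg2 promoter, chr1:134079106-134079405, minus strand: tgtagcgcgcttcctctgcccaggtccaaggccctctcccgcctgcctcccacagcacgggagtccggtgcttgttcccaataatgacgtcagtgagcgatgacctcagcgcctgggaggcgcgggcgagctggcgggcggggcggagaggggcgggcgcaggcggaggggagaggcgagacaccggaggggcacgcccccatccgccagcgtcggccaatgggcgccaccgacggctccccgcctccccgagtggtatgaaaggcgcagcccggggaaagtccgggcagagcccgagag
Sesn1 promoter of the upstream start, chr10:41810324-41810623, plus strand: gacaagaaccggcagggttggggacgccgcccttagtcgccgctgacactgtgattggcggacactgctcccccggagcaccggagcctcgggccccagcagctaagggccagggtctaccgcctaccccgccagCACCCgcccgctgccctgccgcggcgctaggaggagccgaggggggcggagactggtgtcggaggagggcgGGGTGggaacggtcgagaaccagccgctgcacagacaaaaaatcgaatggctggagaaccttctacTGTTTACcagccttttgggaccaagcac
Sesn1 promoter of the downstream start, chr10:41887189-41887488, plus strand: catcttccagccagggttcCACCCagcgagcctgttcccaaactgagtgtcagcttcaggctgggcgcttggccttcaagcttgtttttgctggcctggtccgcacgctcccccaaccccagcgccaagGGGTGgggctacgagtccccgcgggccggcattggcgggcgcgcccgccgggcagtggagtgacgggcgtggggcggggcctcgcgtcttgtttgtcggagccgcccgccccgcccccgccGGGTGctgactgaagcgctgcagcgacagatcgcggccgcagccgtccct
Ccng2 promoter, chr5:93267323-93267622, plus strand: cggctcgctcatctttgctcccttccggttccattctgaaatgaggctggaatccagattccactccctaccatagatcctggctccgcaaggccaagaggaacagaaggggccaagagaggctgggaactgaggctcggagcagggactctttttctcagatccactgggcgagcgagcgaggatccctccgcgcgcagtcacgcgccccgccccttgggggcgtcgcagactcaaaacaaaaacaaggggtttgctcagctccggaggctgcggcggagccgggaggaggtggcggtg
The FOXO element occurred once at the upstream start of Sesn1, at base 23 of the transcript, and once in the promoter of Btg1, which did not pass the test. It was in 2 of the 11 promoters of the members and in 3.65% of all 32851 promoters of the same length. The KLF element was in 5 of the 11, among them both of Sesn1, and in 57.5% of all promoters. The E-box was in 0 of the 11 and in 7.15% of all. Neither Btg2 nor Ccng2 held any of the 3 motifs in this window. No matches of different motifs overlapped, and a match is a string of letters and not a measured binding site.

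The first question was how the quiescence genes responded to 2 h of anti-IgM. Averaged over both strains, 3 of the 10 fell, 0 rose and 7 did not pass (limma, Benjamini-Hochberg adjusted p below 0.05 over all genes). Among all 18193 genes 153 fell, which is 0.841%, and 130 rose, which is 0.715%. With the replicate number as a block the same 3 members fell and 558 genes passed in all, against 283 without it. The median difference of the members was -0.19 log2 units, against 0.0034 over all genes, and 9 of the 10 had a negative difference, as did 49.0% of all genes. The members were chosen with earlier results of these data known. The shares of all genes, here and below, are therefore given as a description and not as a test of the set.

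**Figure D1:**
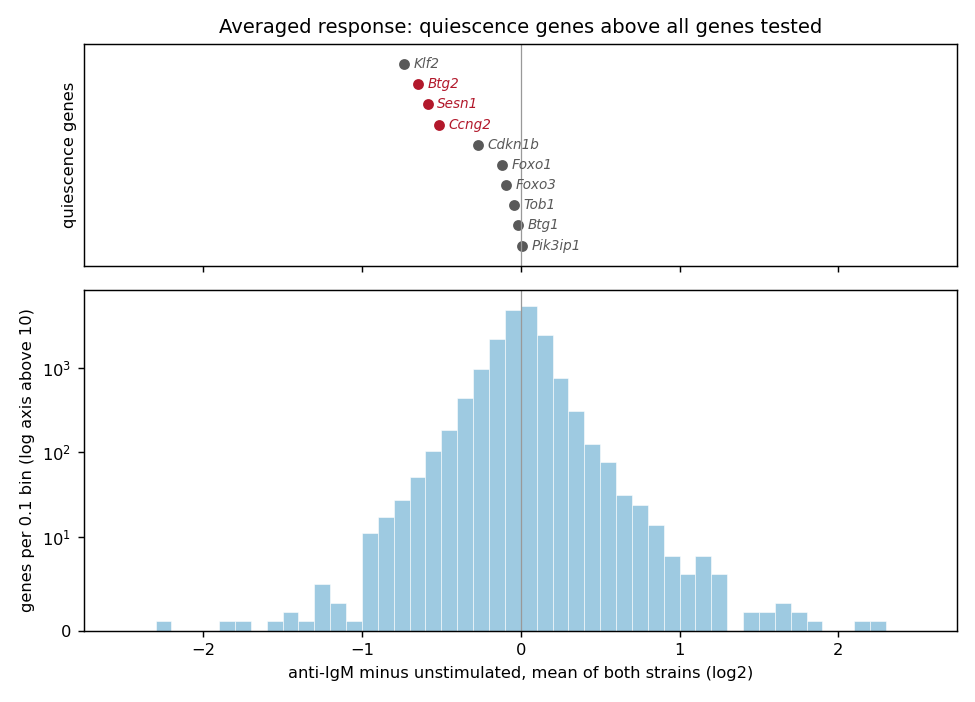
The upper panel plots each quiescence gene at its difference between anti-IgM and unstimulated cells, averaged over both strains (log2), with genes that passed an adjusted p of 0.05 in red. The lower panel counts all 18193 genes in bins of 0.1 (log axis above 10). Klf2, Btg2, Sesn1 and Ccng2 lie in the lower tail, between -0.73 and -0.51, and Btg1 and Pik3ip1 lie at the centre.

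Btg2 encodes an antiproliferative adaptor of the CCR4-NOT deadenylase and is a target of p53. It was at -0.22 and -0.43 in anti-IgM NOD cells, against 0.14, 0.13 and 0.31 in unstimulated NOD cells. In NR4 it was at -0.96, -0.48 and -0.53 with anti-IgM, against 0.15, 0.13 and 0.10 without. All 5 stimulated arrays lay below all 6 unstimulated arrays. The averaged difference was -0.65 (SE 0.099, limma adjusted p = 0.0124), or 0.638 times the unstimulated signal. Its lowest array is the one with the deviating controls, and without it the difference was -0.57 (limma adjusted p = 0.00919). Without NOD anti-IgM replicate 2 it was -0.60 and did not pass (limma adjusted p = 0.0767).

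Sesn1 encodes sestrin 1, a stress-inducible protein that restrains mTORC1 and is a target of p53 and FOXO factors. It was at -0.50 and -0.27 in anti-IgM NOD cells, against 0.22, 0.17 and 0.27 in unstimulated NOD cells. The NR4 arrays read -0.39, -0.60 and -0.52 with anti-IgM, against 0.047, 0.088 and 0.056 without. Stimulated and unstimulated arrays again did not overlap. The averaged difference was -0.59 (SE 0.071, limma adjusted p = 0.00366), and it passed with each of the 11 arrays left out in turn, at adjusted p = 0.00469 to 0.0263.

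Ccng2 encodes cyclin G2, an unconventional cyclin that is high in arrested cells and is a FOXO target. It was at -0.076 and -0.24 in anti-IgM NOD cells, against 0.20, 0.19 and 0.072 in unstimulated NOD cells. The NR4 arrays read -0.52, -0.44 and -0.40 with anti-IgM, against 0.29, 0.30 and 0.19 without. The 3 stimulated NR4 arrays were the lowest of the 11, and the 2 stimulated NOD arrays lay between them and the unstimulated arrays. The averaged difference was -0.51 (SE 0.066, limma adjusted p = 0.00537), and it too passed with each array left out (adjusted p = 0.0116 to 0.0389).

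**Figure D2:**
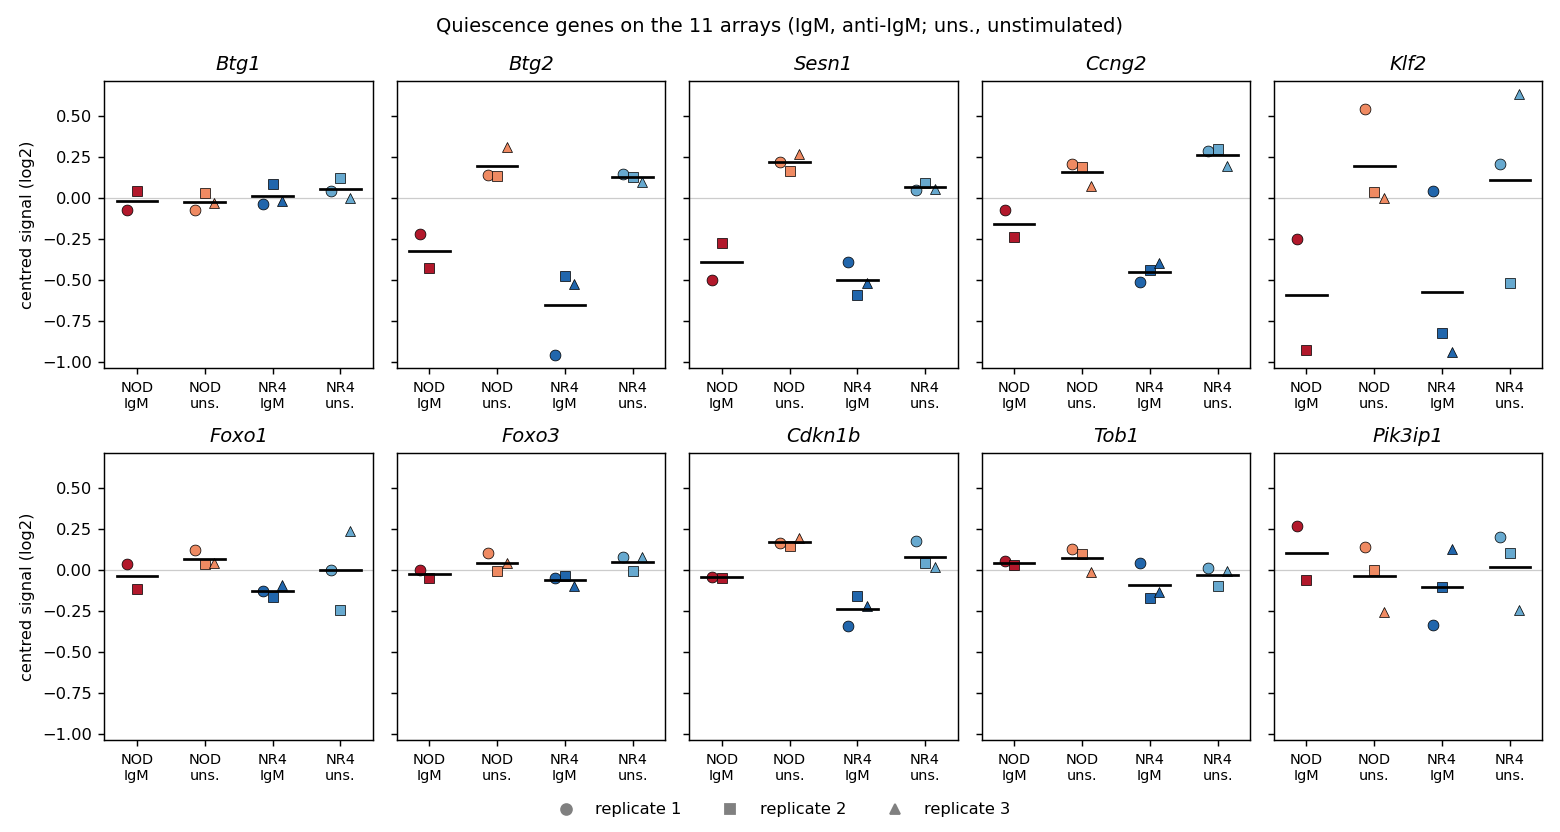
Each panel plots a quiescence gene, with the centred signal (log2) of every array by group, point shapes for the replicate number and a bar for the group mean. For Btg2, Sesn1 and Ccng2 the stimulated arrays all lie below the unstimulated arrays, and the arrays of Klf2 within a group spread over more than those of the other genes.

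Klf2, which maintains quiescence in lymphocytes, had the most negative averaged difference of the 10 and did not pass. It was at -0.25 and -0.93 in anti-IgM NOD cells, against 0.54, 0.033 and 0 in unstimulated NOD cells. In NR4 it was at 0.039, -0.83 and -0.94 with anti-IgM, against 0.20, -0.52 and 0.63 without. In NOD the groups did not overlap, whereas in NR4 an unstimulated array was lower than a stimulated one. That stimulated array, at 0.039, was NR4 anti-IgM replicate 1, the array with the deviating controls. The others, at -0.83 and -0.94, lay below every unstimulated NR4 array. The averaged difference was -0.73 (SE 0.25, 95% interval -1.30 to -0.17, limma adjusted p = 0.251), with an unadjusted p of 0.016. Its residual SD of 0.49 was at percentile 97.6 of all genes, whose median was 0.18. Without NR4 anti-IgM replicate 1 the averaged difference was -0.89 (95% interval -1.41 to -0.36, limma adjusted p = 0.121). With the replicate number as a block the adjusted p was 0.0734 (limma), and the gene has 1 probe set on the array.

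Cdkn1b encodes p27, an inhibitor of cyclin-dependent kinases that FOXO factors induce. It was at -0.043 and -0.048 in anti-IgM NOD cells, against 0.16, 0.15 and 0.20 in unstimulated NOD cells. In NR4 it was at -0.34, -0.16 and -0.22 with anti-IgM, against 0.18, 0.043 and 0.020 without. The arrays of the cultures did not overlap in either strain, but the averaged difference of -0.27 did not pass (SE 0.065, 95% interval -0.41 to -0.12, limma adjusted p = 0.0822). With strain and replicate number as a random block it passed (limma adjusted p = 0.0309). The lowest array was NR4 anti-IgM replicate 1, without which the difference was -0.24 (limma adjusted p = 0.113).

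The transcription factor genes Foxo1 and Foxo3 did not pass. Foxo1 was at 0.036 and -0.12 in anti-IgM NOD cells, against 0.036 to 0.12 in unstimulated NOD cells, and at -0.17 to -0.090 in anti-IgM NR4 cells, against -0.25 to 0.24 in unstimulated NR4 cells. Its averaged difference was -0.12 (95% interval -0.32 to 0.082). Foxo3 was at 0 and -0.049 in anti-IgM NOD cells, against -0.0081 to 0.10 in unstimulated NOD cells, and at -0.098 to -0.038 in anti-IgM NR4 cells, against -0.0076 to 0.081 in unstimulated NR4 cells. Its averaged difference was -0.090 (95% interval -0.22 to 0.041), so that for the gene value a fall beyond 0.22 lies outside the interval. On single probe sets the interval reached lower, to -0.26 for 1434831_a_at and -0.30 for 1434832_at. Probe set 1450236_at went the other way, at 0.041.

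Of the other BTG and TOB genes, Btg1, whose product is the closest relative of BTG2 in this group and acts on the same deadenylase, was at -0.076 and 0.042 in anti-IgM NOD cells, against -0.074 to 0.031 in unstimulated NOD cells. In NR4 it was at -0.036 to 0.084 with anti-IgM, against 0 to 0.12 without. The groups overlapped in both strains. The averaged difference was -0.018 (95% interval -0.16 to 0.12), an interval that does not reach that of Btg2, -0.87 to -0.43. Tob1, another antiproliferative member of the family, differed by -0.045 (95% interval -0.20 to 0.10). Pik3ip1, which encodes a membrane inhibitor of PI3-kinase, differed by 0.0088 (95% interval -0.27 to 0.29). Its arrays ranged from -0.33 to 0.27, with overlap of the cultures in both strains.

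Counted over genes, the stimulated arrays lay below the unstimulated arrays in both strains for 4 members, Btg2, Sesn1, Ccng2 and Cdkn1b, where 3.56% of all genes did so. In NOD alone 6 of the 10 did so, against 12% of all genes, where Foxo1 was counted on a gap too small to show at the digits printed above, and in NR4 alone 5 of the 10, against 7.49%. Each stimulated array was also set beside the unstimulated array of its strain and replicate number, a pairing that is not established for NOD. Btg2, Sesn1, Ccng2, Klf2, Foxo3 and Cdkn1b, 6 of the 10, were lower in all 5 such pairs, as were 9.9% of all genes. For Klf2 these differences ran from -1.58 in NR4 replicate 3 to -0.17 in NR4 replicate 1. For Btg2 they ran from -1.11 in NR4 replicate 1 to -0.36 in NOD replicate 1. For Sesn1 they were closer together, at -0.73 to -0.44.

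The probe sets of a gene were then compared, since 9 of the 10 genes have more than 1. Tested on their own and adjusted over 34945 probe sets, 6 of the 25 fell and 0 rose, where 0.853% of all probe sets fell and 0.564% rose. In 11 of the 25 the stimulated arrays lay below the unstimulated arrays in both strains, against 3.7% of all. Both probe sets of Btg2 fell, at -0.71 for 1416250_at and -0.59 for 1448272_at. Of the 4 probe sets of Sesn1, 3 fell, at -0.96 for 1444376_at, -0.64 for 1454699_at and -0.52 for 1433711_s_at. The other, 1438931_s_at, was at -0.46 (limma adjusted p = 0.0525). The suffix _s_at marks probe sets whose probes may be shared by several transcripts.

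Ccng2 rested on 1 of its 2 probe sets. Probe set 1448364_at differed by -0.79 (SE 0.12, limma adjusted p = 0.0169) and 1416488_at by -0.23 (SE 0.084, limma adjusted p = 0.283), although both are annotated to the same transcript accession and were lower in every stimulated group. On 1448364_at the stimulated NR4 arrays read -0.78, -0.74 and -0.80, against 0.51, 0.47 and 0.10 unstimulated. A similar split was seen in Cdkn1b, at -0.44 for 1419497_at and -0.096 for 1434045_at, neither of which passed. The 4 probe sets of Foxo1 went both ways, from -0.25 for 1416982_at to 0.15 for 1456529_at, and the 3 of Btg1 lay between -0.17 and 0.019.

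**Figure D3:**
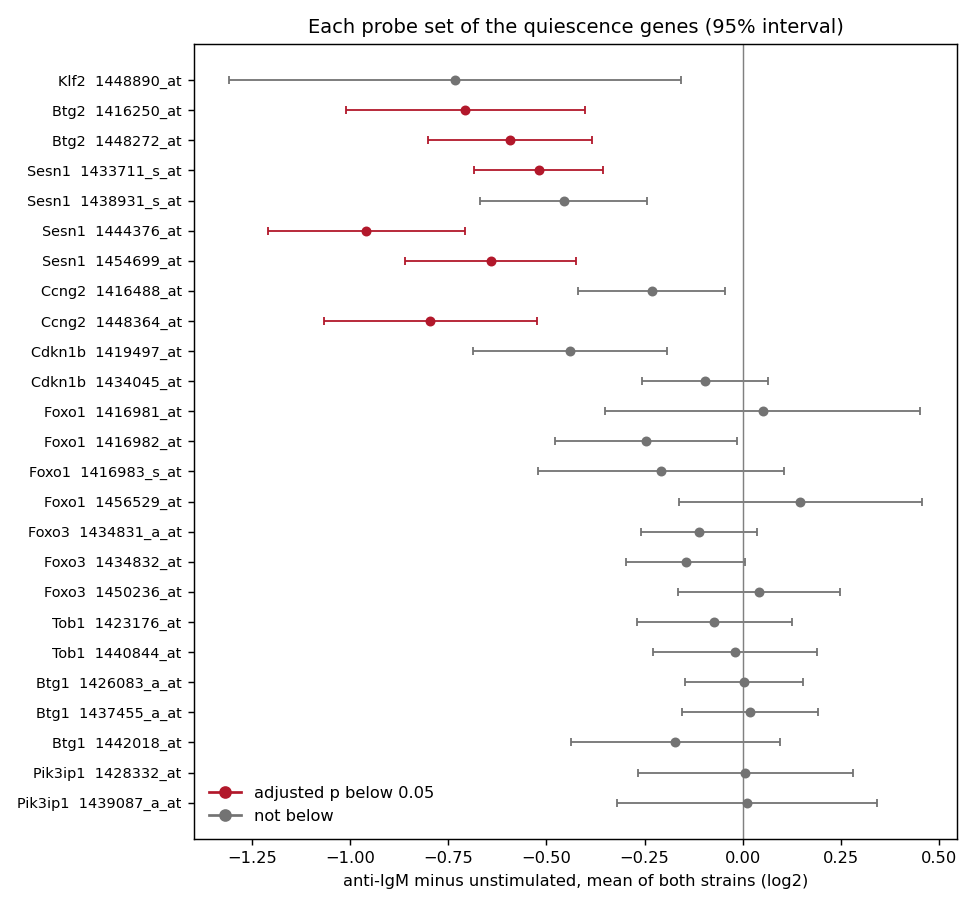
Each of the 25 probe sets is plotted at its averaged difference between anti-IgM and unstimulated cells (log2) with its 95% interval from limma, in red where the adjusted p was below 0.05. The 6 red points belong to Btg2, Sesn1 and Ccng2, and the probe sets of Foxo1 lie on both sides of 0.

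Within NR4 alone, the same 3 genes fell, with Btg2 at -0.78 (SE 0.13, limma adjusted p = 0.0395), Ccng2 at -0.71 (SE 0.088, limma adjusted p = 0.0101) and Sesn1 at -0.57 (SE 0.094, limma adjusted p = 0.0384). Of all genes 45 fell there, which is 0.247%, and 75 passed in either direction, or 229 with the replicate number as a block. With each of the 11 arrays left out in turn, Btg2 passed in 0 of 11 fits (-0.87 to -0.63), Sesn1 in 2 and Ccng2 in 10, the exception for Ccng2 being NR4 unstimulated replicate 1. After quantile normalization 1 of the 3 passed (Ccng2), and 0 passed when the NR4 arrays were fitted alone. Within NOD alone, with 2 stimulated arrays, 0 of the 10 passed (limma). Of all genes 21 passed, which is 0.115%, or 52 with the replicate number as a block. An unadjusted p under 0.05 was reached by 3 of the 10 (Btg2, Sesn1 and Ccng2) and by 5.15% of all genes (limma). Sesn1 was nearest, at -0.61 (SE 0.11, limma adjusted p = 0.0789), followed by Btg2 at -0.52 (SE 0.15) and Ccng2 at -0.31 (SE 0.098).

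**Figure D4:**
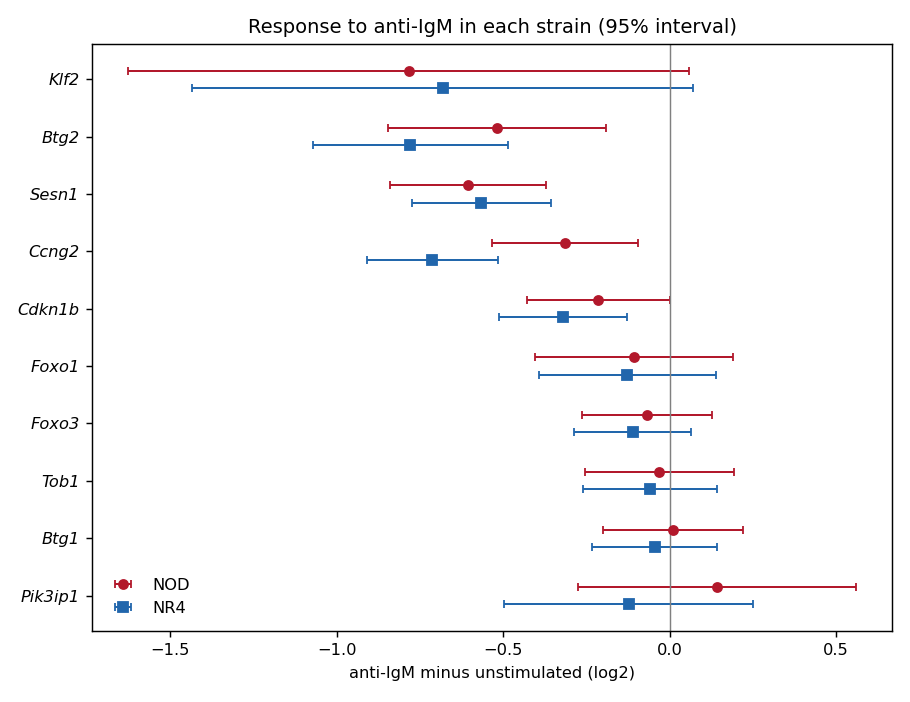
The difference between anti-IgM and unstimulated cells (log2) is plotted for each quiescence gene in NOD (red circles) and NR4 (blue squares), with 95% intervals from limma. The intervals of the strains overlap widely for 9 genes, and for Ccng2 the NOD value of -0.31 lies above the NR4 interval of -0.91 to -0.52.

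The second question was whether the response of these genes differed between the strains. No member passed the interaction test, nor did any of the 18193 genes (limma, 0%). Of all genes 255 had an unadjusted p under 0.05, which is 1.40%, and of the members Ccng2 alone did. Its response in NOD differed from that in NR4 by 0.40 log2 units (SE 0.13, 95% interval 0.11 to 0.69, limma adjusted p = 1), with an unadjusted p of 0.0127. On probe set 1448364_at the difference was 0.68 and on 1416488_at 0.12, again unequal. For Btg2 the difference was 0.26 (95% interval -0.18 to 0.70), or 0.11 (95% interval -0.22 to 0.43) without NR4 anti-IgM replicate 1. For Sesn1 it was -0.041 (95% interval -0.35 to 0.27), or 0.014 without that array. For Klf2 it was -0.10, or 0.21 without that array, and the interval of -1.23 to 1.03 was too wide to show a difference of the size of its averaged response.

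The third question was whether NOD and NR4 cells differed in these genes. Averaged over both cultures 0 of the 10 passed and 0 had an unadjusted p under 0.05 (limma), while 22 of all genes passed, which is 0.121%, or 37 with the replicate number as a block. The nearest were Cdkn1b, at 0.14 (95% interval -0.0017 to 0.29), and Btg2, at 0.20 (95% interval -0.019 to 0.42). In unstimulated cells 0 of the 10 passed (11 of all genes, 0.0605%), again with 0 at an unadjusted p under 0.05. Only in Sesn1 did the unstimulated arrays of the strains not overlap, with 0.17 to 0.27 in NOD and 0.047 to 0.088 in NR4, where 6.38% of all genes were separated. Of its single probe sets only 1433711_s_at was separated, and 1438931_s_at, 1444376_at and 1454699_at overlapped. The difference for the gene was 0.15 (95% interval -0.055 to 0.36).

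In anti-IgM cells 0 of the 10 passed between the strains (9 of all genes, 0.0495%). An unadjusted p under 0.05 was reached by 2 of the 10 and by 4.34% of all genes (limma). These members were Ccng2, higher in NOD by 0.29 (95% interval 0.076 to 0.51, limma adjusted p = 0.98), and Btg2, higher by 0.33 (95% interval 0.0033 to 0.66, limma adjusted p = 0.996). In Btg2, Ccng2 and Cdkn1b both NOD arrays lay above all 3 NR4 arrays, a separation seen in 14.1% of all genes in either direction. On single probe sets of these genes it held for 1448272_at, 1448364_at and 1419497_at, and not for 1416250_at, 1416488_at and 1434045_at. It also held for 1444376_at of Sesn1, 1423176_at of Tob1, and 1416982_at and 1416983_s_at of Foxo1. The other probe sets of Sesn1, Tob1 and Foxo1 overlapped. The differences were 0.40 on 1444376_at, 0.31 on 1423176_at, 0.26 on 1416982_at and 0.24 on 1416983_s_at, and none passed (limma). The difference for Ccng2 was 0.54 on 1448364_at and 0.051 on 1416488_at, and that for Btg2 was 0.40 on 1416250_at and 0.27 on 1448272_at. Without NR4 anti-IgM replicate 1 the difference in anti-IgM cells was 0.18 for Btg2 (95% interval -0.072 to 0.43, unadjusted p 0.141, limma) and 0.26 for Ccng2 (95% interval 0.028 to 0.50, unadjusted p 0.0322, limma). Averaged over cultures, the strain difference of Btg2 without that array was 0.12, against 0.20 with it.

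**Figure D5:**
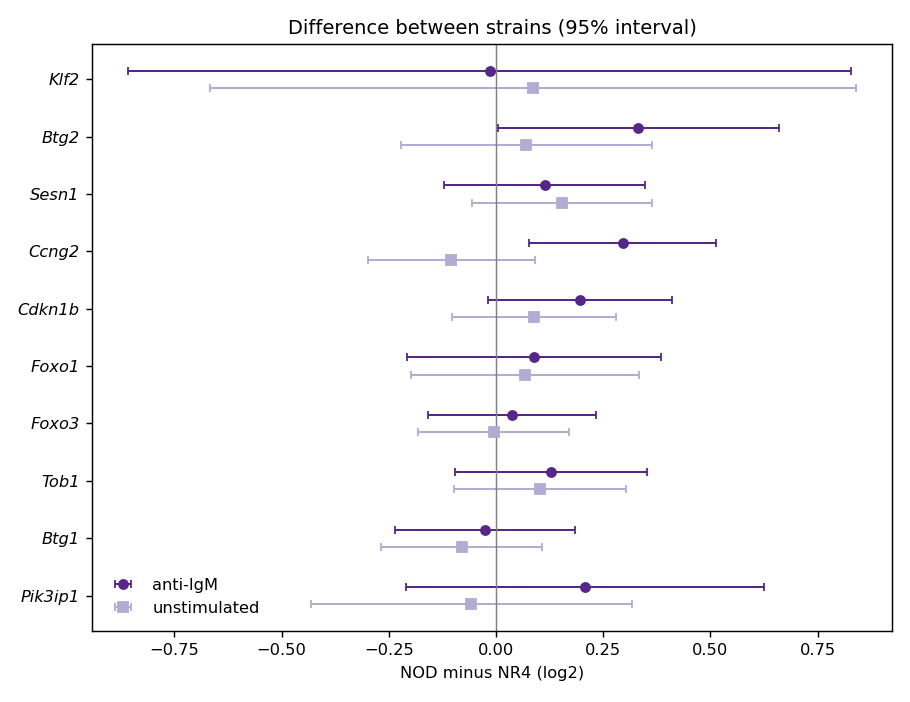
The difference between NOD and NR4 (log2) is plotted for each quiescence gene in anti-IgM cells (dark circles) and unstimulated cells (light squares), with 95% intervals from limma. Nearly all intervals span 0, and those of Ccng2 and Btg2 in anti-IgM cells lie just above it.

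Related genes were examined as lists chosen with earlier results of these data known. Their calls are for the averaged response, in which 0.841% of all genes fell and 0.715% rose. Of 15 measured members of the KLF family besides Klf2, Klf10, a TGF-beta-inducible factor, rose by 0.29 (SE 0.060, limma adjusted p = 0.0418), 0 fell and 14 did not pass, with a median of 0.031. Klf10 did not pass without NR4 anti-IgM replicate 1. Of 15 measured genes of the BTG and TOB family and of the CCR4-NOT and PAN deadenylases, 0 passed (limma), with a median of -0.022. An unadjusted p under 0.05 was seen in 4 of the 15 and in 11.4% of all genes (limma). Tob2, the paralog of Tob1, was at 0.30 (limma adjusted p = 0.0596) and passed with the replicate number as a block. The deadenylase subunit gene Cnot11 was at -0.30 (limma adjusted p = 0.222).

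Of 22 measured genes between PI3-kinase and FOXO, 1 fell and 0 rose, with a median of -0.069. Of all genes 0.841% fell and 0.715% rose. The gene of the list that fell was Pik3cg, the catalytic gamma subunit of PI3-kinase, at -0.80 (SE 0.14, limma adjusted p = 0.0226). Of 25 measured genes known as targets of FOXO factors or KLF2 in lymphocytes or other cells, 2 rose, 1 fell and 22 did not pass, with a median of -0.074. Irs2, an insulin receptor substrate that FOXO factors induce in liver, rose by 1.03 (SE 0.16, limma adjusted p = 0.0121). The proapoptotic gene Bcl2l11 rose by 0.31 (limma adjusted p = 0.0322), and the pocket protein gene Rbl2 fell, at -0.45 (limma adjusted p = 0.0324). Without NR4 anti-IgM replicate 1, Irs2 still passed while Bcl2l11 and Rbl2 did not, and Gadd45a passed, as it did with the replicate number as a block.

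Irs2 therefore differed in direction from Sesn1 and Ccng2. It was at 1.17 and 0.44 in anti-IgM NOD cells, against 0, -0.21 and -0.44 in unstimulated NOD cells. The NR4 arrays read 0.66, 0.42 and 0.78 with anti-IgM, against -0.13, -0.66 and -0.43 without. The arrays of the cultures did not overlap in either strain.

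Of 19 measured p53 targets besides Btg2 and Sesn1, including the sestrin genes Sesn2 and Sesn3, 0 passed (limma), with a median of -0.026. An unadjusted p under 0.05 was seen in 8 of the 19 and in 11.4% of all genes (limma). With the replicate number as a block 2 passed, Gadd45a lower and the p21 gene Cdkn1a higher. Cdkn1a, at 0.58 without the block (limma adjusted p = 0.193), is also in the next list and passed there too with the block. The nearest were Gadd45a, a growth arrest gene, at -0.50 (limma adjusted p = 0.0913), and Pmaip1, which encodes the proapoptotic NOXA, at 0.49 (limma adjusted p = 0.124), which both passed without NR4 anti-IgM replicate 1. Of 24 measured genes of G1 cyclins, their kinases and inhibitors, with the pocket proteins and E2F factors, 2 fell and 0 rose. The median of this list was -0.026, and of all genes 0.841% fell and 0.715% rose. The 2 that fell were Rbl2 and E2f2, an E2F factor that restrains lymphocyte proliferation in mice, at -0.79 (SE 0.15, limma adjusted p = 0.0251). Without that array E2f2 alone passed. Of 20 measured further genes linked to lymphocyte quiescence, 2 fell and 0 rose, with a median of -0.12. They were Slfn2, whose loss in mice breaks T cell quiescence, at -0.56 (SE 0.12, limma adjusted p = 0.0423), which did not pass without that array or after quantile normalization, and Ripor2, an inhibitor of the small GTPase RhoA, at -0.38 (SE 0.073, limma adjusted p = 0.0322). With the replicate number as a block Tsc22d3 and Ypel3 of this list also fell. Between the strains, averaged over cultures, 0 genes of these 7 lists passed (limma).

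Markers of B cells moved with the same contrast. Of 8 measured pan B cell markers 4 fell after anti-IgM (Cd79b, Ms4a1, Cd22 and Cd37), against 0.841% of all genes. The median of the 8 markers was -0.44. Their mean centred signal was -0.33 to -0.099 in anti-IgM NOD cells, against 0.098 to 0.15 in unstimulated NOD cells, and -0.37 to -0.19 in anti-IgM NR4 cells, against -0.069 to 0.30 in unstimulated NR4 cells. The part of this fall in that of the quiescence genes was not tested. The mean of 9 measured T cell markers overlapped between the cultures in NOD, at -0.021 to 0.24 with anti-IgM, against -0.15 to 0.18 without, and in NR4, at 0.0061 to 0.11 with anti-IgM, against -0.37 to 0.071 without. Of these, Cd5, which B cells can also express, rose and 0 fell. Plasma cell markers (5 measured) were higher without overlap in both strains, at 0.095 to 0.099 in anti-IgM NOD cells, against -0.15 to -0.071 in unstimulated NOD cells, and at 0.16 to 0.27 in anti-IgM NR4 cells, against 0.0041 to 0.044 in unstimulated NR4 cells. Of them Irf4, which receptor signalling also induces in B cells, rose. Of 5 dendritic cell markers Itgax rose, and of 6 endothelial and stromal markers Pecam1 fell. In NOD the mean of the dendritic cell markers did not overlap, at 0.079 to 0.14 with anti-IgM, against -0.12 to 0.023 without. The same held there for endothelial and stromal markers (-0.20 to -0.17, against -0.10 to 0.087) and erythroid markers (-0.080 to -0.076, against 0.0017 to 0.070). In NR4 the cultures overlapped for each of these lists. Among single genes, the stimulated arrays lay below the unstimulated arrays in NOD for 12% of all genes. In both strains they did so for 3.56%. Such a share was not computed for a rise or for means of lists. Of 8 markers each of NK and myeloid cells and 4 of erythroid cells, 0 passed (limma). At an unadjusted p under 0.05 were 0, 1 and 0 of them, and 11.4% of all genes (limma). The part of these markers in the results was not tested either. Because the values are centred, they do not show whether any marker was absent.

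For each member the 3 genes most like it were taken by Pearson correlation of gene values over the 11 arrays, which share the 4 groups, so that genes falling in the same groups resemble each other. The most alike were Fuca1 (0.98), Cd79b (0.97) and Arhgdib (0.97) for Btg2, Dpp4 (0.96), C2cd2l (0.94) and Slamf6 (0.94) for Sesn1, and Ankle2 (0.97), Fli1 (0.97) and Ublcp1 (0.96) for Ccng2. For Klf2 the closest was the calcium channel gene Itpr3 (0.98), at an averaged difference of -0.41 that did not pass (limma adjusted p = 0.495). No member was among the 3 closest to another.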

How the data were processed

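The deposited table holds log2 values (the base is not stated and was taken as 2) of 45101 probe sets on 11 arrays, made by the authors with RMA per the submitters' processing notes. The sources used here give no software version and no centring step, although 100% of probe sets have a median of 0 over the arrays. Array medians lay between -0.0011 and 0.022, and no 2 arrays were identical. Groups and replicate numbers come from the sample titles.

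Probe sets with 1 gene symbol in the platform annotation (34945) were reduced to 18193 genes by the median. A mean per group was fitted to all 11 arrays with limma 3.58.1 in R 4.3.3 (7 residual degrees of freedom), with empirical Bayes moderation, two-sided tests and Benjamini-Hochberg adjustment over all genes within each of 7 comparisons. The steps were tested on simulated data. Intervals are 95% intervals of that model. The members, the gene lists and the marker lists were chosen with earlier results of these data known. Named genes are the members, up to 4 called genes of each list or else the 2 with the smallest p, Egr2, called markers, and the 3 genes most like a member. Genes called only in an alternative (Cdkn1a, Tsc22d3, Ypel3) were named after their values were seen. Promoters are from RefSeq, GRCm38.p6, matched by symbol for 10 of 10 members.

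Pairing by replicate number was examined first. Correlations of deviations from the group means were 0.59, 0.21 and 0.51 between unstimulated NOD and NR4, against -0.55 to -0.013 for unlike numbers. Between stimulated and unstimulated NR4 they were 0.33, 0.22 and 0.47, against -0.53 to 0.18. Deviations cancel within a group, so the values for like and unlike numbers were not independent. The numbers were taken to pair these arrays, although for stimulated NR4 replicate 2 the same-number value was close to the 0.18 with unstimulated replicate 1. The main tests do not use this pairing, and the blocks do. Comparisons with stimulated NOD have only 2 pairs, and pairing is not established there. Stimulated NOD replicate 1 was at 0.63 with unstimulated NOD replicate 1 and 0.37 with stimulated NR4 replicate 1. Stimulated NOD replicate 2 was at 0.12 with unstimulated NOD replicate 2, against 0.58 with replicate 3. With stimulated NR4 it was at -0.12 for replicate 2, against 0.50 for replicate 3. Deviations of 2 arrays from their mean are mirror images. The values of stimulated NOD replicate 2 are therefore those of replicate 1 with the sign reversed, and are not separate observations. The replicate block uses the NOD numbers all the same. Alternatives were the mean of probe sets, single probe sets, quantile normalization, the replicate block, a random block, robust moderation, single arrays left out and fits to the compared groups alone.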

Additional observations from a re-analysis of the deposited data

How the results depend on the processing

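The count of 3 members falling in the averaged response was 3 under the mean of probe sets, quantile normalization, robust moderation, the replicate block and single probe sets, 4 with the random block, and 2 to 3 with single arrays left out, the 2 without NOD anti-IgM replicate 2. With the replicate block the differences were -0.63 for Btg2, -0.58 for Sesn1 and -0.52 for Ccng2, and it changed no call of a member. In NR4 the count of 3 became 1 after quantile normalization, 0 when only NR4 arrays were fitted and 0 to 2 with single arrays left out. In NOD the count of 0 became 1 with the random block (Sesn1). Counts over all genes in the averaged response were 283 as reported, 558 with the replicate block, 756 with the random block, 495 of probe sets and 76 to 273 with arrays left out. In NR4 they were 75, then 229, 353, 16 (quantile), 9 (NR4 arrays alone) and 21 to 50, and in NOD 21, then 52, 91, 9, 0 and 0 to 25. Between strains, averaged, they were 22, then 37, 12, 37 of probe sets and 12 to 21. In unstimulated cells they were 11, and 18 of probe sets, and in anti-IgM cells 9, then 4 with those groups alone and 4 to 10. The averaged comparisons and the interaction use all groups, so no fit to fewer groups exists for them. Where NOD anti-IgM keeps 1 array, that array is assumed to vary like the other groups. The cause of these changes was not tested.

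Sign changes were seen only in values that did not pass. In the averaged response Pik3ip1 was at -0.012 with the replicate block, -0.0099 with the random block and -0.074 to 0.092 with arrays left out, and Btg1 at -0.047 to 0.012 with arrays left out. In NOD Btg1 was at -0.0065 with the replicate block and -0.050 to 0.068 with arrays left out, and Pik3ip1 at -0.024 to 0.31. Between strains Klf2 ranged from -0.13 to 0.205 and Pik3ip1 from -0.0077 to 0.16 with arrays left out, and Foxo3 was at -0.019 with the mean of probe sets. Without NR4 anti-IgM replicate 1, an alternative chosen after seeing the data, Klf2 between strains in anti-IgM cells was at 0.29, and the interaction was 0.014 for Sesn1 and 0.21 for Klf2. Single probe sets turned the averaged response of Foxo1 (1416981_at 0.051, 1456529_at 0.15), Btg1 (1426083_a_at 0.0035, 1437455_a_at 0.019) and Foxo3 (1450236_at 0.041). They turned that in NR4 of Foxo1 (1416981_at 0.054, 1456529_at 0.30) and Tob1 (1440844_at 0.027). In NOD they turned Foxo1 (1416981_at 0.048), Tob1 (1423176_at 0.0011), Btg1 (1442018_at -0.068) and Foxo3 (1450236_at 0.13). Between strains they turned Ccng2 (1416488_at -0.0099), Tob1 (1440844_at -0.0079), Foxo3 (1450236_at -0.13) and Foxo1 (1456529_at -0.17).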
